A study of Mus musculus with 24 samples.

Results

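Imprinted genes are expressed mainly from the copy inherited from 1 parent. The data described here are the allelic counts of 48 mouse imprinted genes from 19 chromosomal clusters, given as a list of gene symbols. Of the 37315 genes with counts, 45 of the 48 were found by symbol, and Kcnq1ot1, Snrpn and Peg13 are not analysed here. A gene was used in a group of libraries where it had at least 20 allelic counts pooled over that group. By this rule 35 of the 48 genes were used in at least 1 group, and 10 (H19, Usp29, Ndn, Magel2, Mkrn3, Mest, Nnat, Gnas, Meg3 and Rasgrf1) stayed below it.

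Imprinting is set in the germ line, where DNA methylation marks a control region on the copy from 1 parent. In the embryo that mark is kept through cell division and silences or activates the neighbouring genes, often through a long non-coding RNA, so that imprinted genes lie in clusters that hold maternally and paternally expressed members. Some members are imprinted in most tissues. Others are imprinted only in the placenta or the brain and are expressed from both copies elsewhere, so a tissue such as the adult kidney is a place where both kinds can be read side by side.

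The study measured how far allele-specific RNA-seq repeats between libraries made from the same RNA. Its kidney libraries were made from aliquots of 1 total RNA, from the left kidney of 1 adult female 129S1/SvImJ x CAST/EiJ F1 mouse labelled as control. Experiment 1 used a NEBNext poly-A kit with 100 ng of RNA, Experiment 2 the SMARTseq v4 kit with 10 ng and Experiment 3 the same kit with 100 pg, with 6 libraries each. Abl.1 and Abl.2 are immortalised B cell lines made with the Abelson virus, labelled with the same cross and as control, each of them clonal, with 2 libraries each (SMARTseq, 10 ng), and those of Abl.2 were sequenced again on another day. The kidney libraries repeat 1 animal and the clone libraries repeat 1 clone, so every p-value below measures the spread between libraries and not between animals or clones. The study's methods assign alleles by strain genome and name 129S1 as the maternal allele, which leaves CAST/EiJ as the paternal one. The labels name 1 cross and no reciprocal one, so parent of origin and strain cannot be told apart in any group.

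Allelic imbalance (AI) is the share of a gene's allelic counts that fell in the maternal column of the deposited table. An AI of 1 puts all counts in that column, an AI of 0 puts all in the paternal column, and 0.5 is balance. Because alleles were assigned by strain, a column shows the strain of the allele, and the parent only through the direction of the cross. The study's quality correction coefficient (QCC) is the factor by which AI differences between libraries exceed those of binomial sampling. A gene is called biased here where a proportional test of AI against 0.5, on pooled counts divided by the square of the QCC, passed Bonferroni adjustment at 0.05 over all genes used in that group, and strongly biased where its AI was then at least 0.9 or at most 0.1. Intervals are 95% Wilson intervals on the same divided counts.

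In 3 of the clusters a small retrogene lies within the span of another gene, its host. Mcts2 lies within H13 on the same strand, Nap1l5 within Herc3 on the opposite strand and Zrsr1 within Commd1 on the opposite strand. The 250 bases before the RefSeq start of the 3 retrogenes, of the hosts H13 and Herc3 and of Peg3 (assembly GRCm38.p6, 5′ to 3′ on the strand of the gene) are shown because the start of a retrogene or of Peg3 lies in or beside a region that carries the parental methylation mark in mouse, and that mark sits on the CG dinucleotides, printed in capitals. The regions are chr7:6730420-6730669 (minus strand) for Peg3, chr11:22971755-22972004 (plus) for Zrsr1, chr6:58907127-58907376 (minus) for Nap1l5, chr2:152686898-152687147 (plus) for Mcts2, chr2:152669211-152669460 (plus) for H13 and chr6:58833450-58833699 (plus) for Herc3.
Peg3: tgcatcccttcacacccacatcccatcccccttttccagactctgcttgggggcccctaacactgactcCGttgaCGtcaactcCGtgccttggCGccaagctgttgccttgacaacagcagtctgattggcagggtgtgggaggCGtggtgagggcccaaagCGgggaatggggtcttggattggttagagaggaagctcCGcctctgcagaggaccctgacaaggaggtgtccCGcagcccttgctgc
Zrsr1: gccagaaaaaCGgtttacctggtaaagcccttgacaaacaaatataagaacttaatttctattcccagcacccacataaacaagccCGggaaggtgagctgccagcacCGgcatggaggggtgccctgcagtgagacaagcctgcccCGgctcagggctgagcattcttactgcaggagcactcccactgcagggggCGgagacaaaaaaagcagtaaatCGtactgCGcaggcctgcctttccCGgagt
Nap1l5: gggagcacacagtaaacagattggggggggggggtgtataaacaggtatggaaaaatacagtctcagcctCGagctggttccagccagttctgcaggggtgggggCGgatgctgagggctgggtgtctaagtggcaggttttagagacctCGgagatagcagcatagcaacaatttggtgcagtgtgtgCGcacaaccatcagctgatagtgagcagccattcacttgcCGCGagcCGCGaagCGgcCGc
Mcts2: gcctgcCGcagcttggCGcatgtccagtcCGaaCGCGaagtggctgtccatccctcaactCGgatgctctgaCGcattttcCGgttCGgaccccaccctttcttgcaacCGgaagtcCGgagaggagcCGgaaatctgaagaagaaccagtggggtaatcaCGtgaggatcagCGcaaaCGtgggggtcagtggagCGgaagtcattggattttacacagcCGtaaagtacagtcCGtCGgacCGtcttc
H13: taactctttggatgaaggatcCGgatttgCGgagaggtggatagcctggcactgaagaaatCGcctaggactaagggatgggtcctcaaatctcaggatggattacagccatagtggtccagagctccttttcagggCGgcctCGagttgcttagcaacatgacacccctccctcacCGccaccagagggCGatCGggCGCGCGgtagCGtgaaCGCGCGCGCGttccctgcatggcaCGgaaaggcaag
Herc3: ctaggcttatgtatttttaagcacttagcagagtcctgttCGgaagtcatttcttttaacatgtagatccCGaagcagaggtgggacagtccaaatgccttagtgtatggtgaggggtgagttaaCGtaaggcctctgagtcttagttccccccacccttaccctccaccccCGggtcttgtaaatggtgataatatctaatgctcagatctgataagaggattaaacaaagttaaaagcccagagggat
Mcts2 had 20 CG in this window and its host H13 had 18, counts reached by 17.9% and 21.7% of all 32851 promoters of the same length. Nap1l5 had 10 and its host Herc3 had 4, reached by 37.8% and 62.2%. Peg3 and Zrsr1 had 8 each (43.0%). Commd1, the host of Zrsr1, whose windows are not printed, had 14 and 13 before its 2 RefSeq starts (29.4% and 31.5%), more than its retrogene, and neither window held the letters TGCCGC. The median of all promoters was 6. The letters TGCCGC, the methylated hexamer read by ZFP57, were searched on both strands and occurred once before Nap1l5, once before Mcts2 and in none of the other 4, against 8.68% of all promoters with a match. Over all 60 promoter entries of the 39 imprinted genes with an entry, the median was 10.5 CG and 10 entries held the hexamer. These letters describe the windows and not the binding of any factor.

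The total of allelic counts lay between 6138693 and 6702351 for a kidney library and between 19213150 and 22410835 for a clone library. The maternal column held 46.6% to 48.3% of the counts of a kidney library and 50.2% to 52.0% of those of a clone library. Experiment 1 had a mean QCC of 1.87 ± 0.20, Experiment 2 one of 1.47 ± 0.014 and Experiment 3 one of 2.59 ± 0.052 (SD over 15 pairs of libraries), and 2.62 and 2.17 in Abl.1 and Abl.2 (1 pair each). In Experiment 1 the pairs that include replicate 1 averaged 2.13 and the other pairs 1.74, and without replicate 1 the count of biased imprinted genes was 12 in place of 11. All 9 kidney epithelial markers were detected in each kidney experiment, with summed levels of 11818 to 21652 CPM (allelic counts scaled by the library's total), against 0.135 to 0.937 CPM in Abl.1 and 13.4 to 15.8 CPM in Abl.2, and Lrp2, Slc12a1, Aqp2 and Nphs1 were at 0 in both clones. The 9 B lineage markers were all detected in the clones, at 8529 to 9638 CPM summed, and summed to 39.3 to 61.5 CPM in the kidney.

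In the kidney, some imprinted genes were nearly monoallelic, some were biased in part, and most did not pass the QCC-corrected test with Bonferroni adjustment. With the less strict Benjamini-Hochberg adjustment, 21 of 35, 21 of 32 and 14 of 33 passed in Experiments 1 to 3. Of all genes used, 4421 of 13972, 5479 of 13582 and 3258 of 13662 then passed. The counts below are those with Bonferroni adjustment. In Experiment 1, 11 of 35 genes were biased, where 14.3% of all 13972 genes used were, and 7 were strongly biased (2.23% of all). The count was 12 of 32 in Experiment 2 (19.9% of all), with 8 strongly biased (3.14%), and 11 of 33 in Experiment 3 (10.6%), with 8 strongly biased (1.86%). Of 32 genes used in all 3 experiments, Igf2, Cdkn1c, Peg3, Impact, Zrsr1, Sgce, Pon2, H13 and Mcts2 were biased in every one, 19 were biased in none, and 4 changed call between experiments. Each of the 9 kept the same column throughout. The range of pooled AI across the 3 experiments had a median of 0.0392 over the 32 genes, and 17 of them stayed within 0.05.

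**Figure D1:**
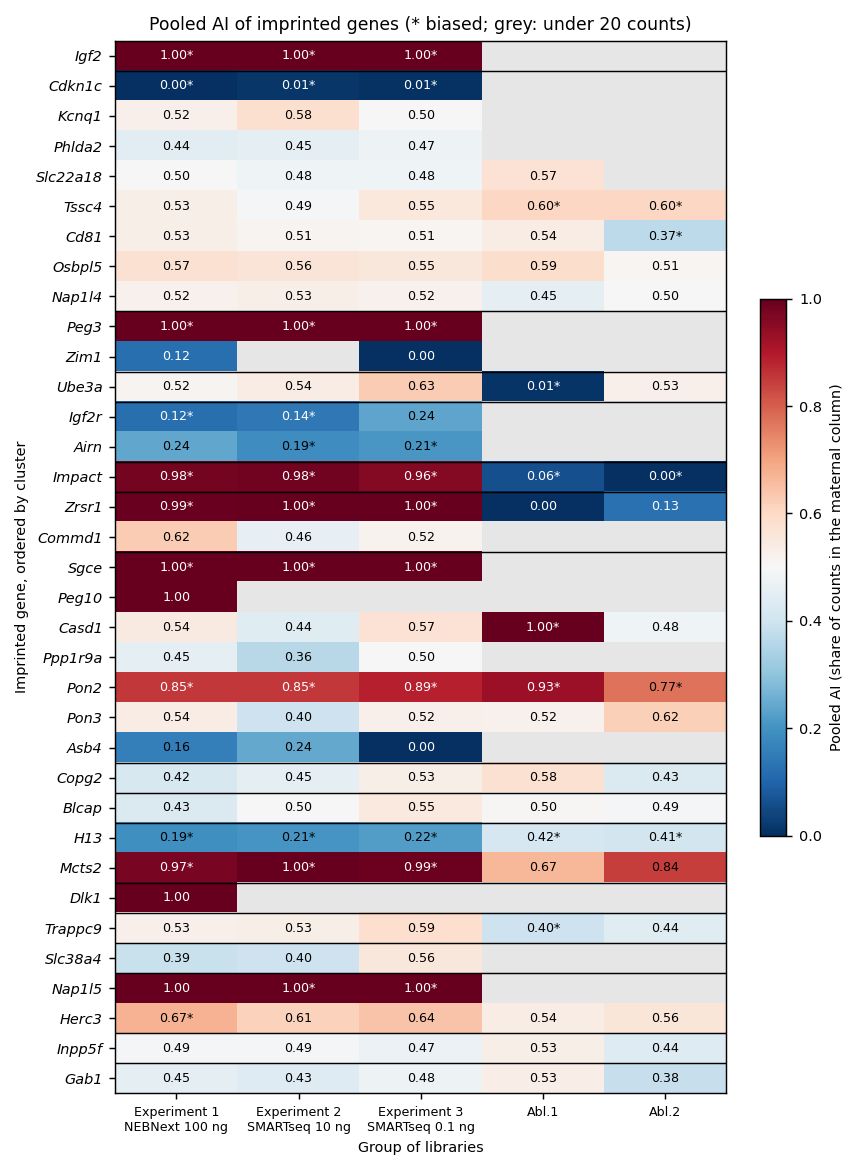
Pooled AI (colour and printed value, from 0 for all counts in the paternal column to 1 for all in the maternal column) of the 35 imprinted genes used, ordered by cluster, in 3 kidney experiments and 2 clones, with an asterisk on biased genes and grey where pooled counts were under 20. Kidney columns resemble each other row by row, while Impact and Zrsr1 change colour in both clones and Ube3a and Casd1 in Abl.1 alone.

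The biased genes known as paternally expressed had their kidney counts in the maternal column, with Airn as the exception. Of 13 such genes used in Experiment 1, 6 were biased, all in the maternal column. In Experiments 2 and 3, 8 of 11 were biased, 7 in the maternal column and Airn in the paternal column. Of the genes known as maternally expressed, 4 of 20, 4 of 19 and 3 of 20 were biased in the 3 experiments, near the shares of all genes (14.3%, 19.9% and 10.6%). Cdkn1c and H13 were in the paternal column in every experiment and Igf2r in Experiments 1 and 2, while Pon2 was in the maternal column in all 3. For any 1 gene, counts of 1 cross direction do not separate parent of origin from strain. Whether the columns match the parents was not tested.

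In the Igf2-H19 cluster of distal chromosome 7, Igf2, a fetal growth factor (chr7:142650766-142666816), had 114 to 196 counts per library in the maternal column in Experiment 1 (median 147) and 0 to 2 in the paternal column. Its maternal-column counts were 9, 15.5 and 21 (lowest, median and highest) in Experiment 2, with 21, 26.5 and 29 for Experiment 3, with 0 in the paternal column of all 12 libraries. Every library thus had its Igf2 counts almost wholly in 1 column, at a pooled AI of 0.998 (interval 0.981 to 1.000), 1 (0.918 to 1) and 1 (0.857 to 1). The level of Igf2 was 17.0 to 31.9 CPM in Experiment 1 and 1.41 to 4.38 CPM with the SMARTseq kit. H19, a non-coding RNA of the other parental copy, had 1 and 8 counts in the maternal and paternal columns in Experiment 1 and at most 1 count in the other experiments.

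In the neighbouring Kcnq1 cluster, Cdkn1c, an inhibitor of cyclin-dependent kinases that restrains growth (chr7:143458339-143461050), stood alone. Its paternal-column counts were 57, 72 and 81 (lowest, median, highest) in Experiment 1, 201, 232 and 254 in Experiment 2, with 218, 246.5 and 280 for Experiment 3, and no library had more than 5 in the maternal column. AI per library did not exceed 0.021 in any of the 18 libraries, and pooled AI was 0.00236, 0.0150 and 0.00598. The other 7 members of the cluster were not biased in any kidney experiment. These were the potassium channel gene Kcnq1 (pooled AI 0.525, 0.581 and 0.497 in Experiments 1 to 3), the placental growth regulator Phlda2 (0.444, 0.450 and 0.473), the transporter gene Slc22a18 (0.499, 0.477 and 0.478), Tssc4 (0.529, 0.489 and 0.552), the tetraspanin gene Cd81 (0.530, 0.512 and 0.512), the oxysterol-binding protein gene Osbpl5 (0.575, 0.563 and 0.555) and the histone chaperone gene Nap1l4 (0.520, 0.530 and 0.522). Slc22a18 and Cd81 had the most counts, and the intervals of Cd81 in Experiments 1 and 2 (0.510 to 0.551 and 0.502 to 0.522) lay just above balance without passing the adjusted test.

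Peg3 encodes a zinc finger protein of paternal expression and heads the cluster of proximal chromosome 7 (chr7:6703892-6730431). It had 124, 145 and 176 maternal-column counts per library (lowest, median, highest) in Experiment 1, 81, 93.5 and 119 in Experiment 2, with 67, 86 and 132 for Experiment 3. A single paternal-column count, in Experiment 3, stood against 2009 maternal-column counts in all. Zim1, a maternally expressed zinc finger gene beside it, went the other way with few counts: 7 and 50 in the maternal and paternal columns in Experiment 1 and 0 and 30 in Experiment 3, where a single library held 21 of the 30. Zim1 was not biased by the adjusted test in either.

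In the central chromosome 7 cluster, deleted in Prader-Willi and Angelman syndromes in people, Ube3a was the only member with 20 counts in a kidney experiment. It encodes a ubiquitin ligase that is imprinted in neurons. Its AI per library was 0.421, 0.525 and 0.600 (lowest, median, highest) in Experiment 1, 0.492, 0.537 and 0.579 in Experiment 2, with 0.474, 0.669 and 0.719 for Experiment 3. No group passed the test, at pooled AI of 0.515, 0.537 and 0.627. Mkrn3 and Ndn, known as paternally expressed, had too few counts for use, with 32 of 33 and 15 of 15 kidney counts in the maternal column.

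Igf2r, the receptor that removes IGF2 from the cell surface, and Airn, the non-coding RNA transcribed against it, form a pair on chromosome 17 (Igf2r, chr17:12682406-12769664, and Airn, chr17:12741311-12860136). Igf2r had 176, 186 and 222 paternal-column counts per library (lowest, median, highest) in Experiment 1 and 20, 27.5 and 36 in the maternal column, for a pooled AI of 0.122 (interval 0.0931 to 0.159). With the SMARTseq kit it had only 13 to 45 paternal-column counts per library, and its AI per library reached 0.381 in Experiment 2 and, starting from 0 in both, 0.405 in Experiment 3, where it was not biased. Airn had a pooled AI of 0.240, 0.188 and 0.208, biased in Experiments 2 and 3, in the same column as Igf2r. The genes overlap by 28354 bases on opposite strands with no exon bases in common in the annotation. The kits are not stated to keep the strand, so within the overlap reads of unspliced Igf2r and of Airn cannot be told apart. Airn extends beyond Igf2r, and the share of its counts from there was not determined.

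Impact, which encodes a regulator of the kinase GCN2, had 145, 182 and 212 maternal-column counts per library (lowest, median, highest) in Experiment 1, 163, 183.5 and 189 in Experiment 2, with 64, 79 and 129 for Experiment 3. The paternal column held 1 to 8, 1 to 6 and 0 to 14 counts. AI per library was lowest, at 0.883, in an Experiment 3 library and otherwise between 0.937 and 1. Zrsr1, a retrogene related to the splicing factor U2AF small subunit (chr11:22972005-22976496), had 31, 47 and 68 maternal-column counts in Experiment 1, 24, 26 and 32 in Experiment 2, with 19, 25 and 32 for Experiment 3, against 2 paternal-column counts in the 18 libraries together. Its host Commd1, maternally expressed in the brain, was not biased (15 of 24, 22 of 48 and 15 of 29 in the maternal column). Of the 4492 exon bases of Zrsr1, 412 are also exon bases of Commd1 on the other strand.

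The Peg10 cluster of chromosome 6 held 7 genes used in the kidney. Sgce, which encodes epsilon-sarcoglycan and starts back to back with Peg10 (chr6:4674350-4747207), had 31, 36 and 42 maternal-column counts per library (lowest, median, highest) in Experiment 1, 33, 48.5 and 55 in Experiment 2, with 39, 50 and 69 for Experiment 3. The paternal column had 1 count in 18 libraries. Peg10, a retrotransposon-derived placental gene, had 26 counts in Experiment 1, all in the maternal column, and was not biased by the adjusted test at that depth. Pon2, a paraoxonase gene whose imprinting is described in the placenta (chr6:5264147-5298455), was partly biased: its AI per library was 0.763, 0.853 and 0.939 in Experiment 1, 0.811, 0.855 and 0.917 in Experiment 2, with 0.782, 0.911 and 0.966 for Experiment 3. Its neighbour Pon3 was not biased (pooled AI 0.536, 0.397 and 0.525), nor were the sialic acid acetyltransferase gene Casd1 (0.544, 0.441 and 0.572) and the neuronal scaffold gene Ppp1r9a (0.451, 0.361 and 0.5). Asb4, of a ubiquitin ligase family, leaned to the paternal column with 12 and 64 counts in the maternal and paternal columns in Experiment 1, 17 and 53 in Experiment 2, with 0 and 134 for Experiment 3. It did not pass in any with Bonferroni adjustment, and passed in all 3 with Benjamini-Hochberg adjustment. It had the widest range of pooled AI among the experiments, 0.243, and as few as 0 counts in a library.

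H13, which encodes a signal peptide peptidase (chr2:152669461-152708670), and the retrogene Mcts2 in its intron (chr2:152687035-152687946) were biased to opposite columns. H13 had an AI per library of 0.151, 0.192 and 0.231 (lowest, median, highest) in Experiment 1, 0.184, 0.206 and 0.223 in Experiment 2, with 0.189, 0.212 and 0.278 for Experiment 3. Mcts2 had 0.957, 0.968 and 1 in Experiment 1, 0.986, 1 and 1 in Experiment 2, with 0.955, 1 and 1 for Experiment 3. The ranges of the pair did not come near each other in any experiment. They share no exon bases, but Mcts2 is a near-identical copy of Mcts1 on the X chromosome, and reads shared by the copies would make its counts uncertain.

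Nap1l5, a retrogene of the nucleosome assembly protein family (chr6:58905233-58907076), had 64, 151 and 162 counts pooled in the 3 experiments, all in the maternal column, and was biased in Experiments 2 and 3. In Experiment 1 its 5 to 14 counts per library did not pass the adjusted test. Its host Herc3, of the HERC ubiquitin ligase family (chr6:58831465-58920398), had an AI per library of 0.589, 0.673 and 0.772 in Experiment 1, 0.453, 0.647 and 0.682 in Experiment 2, with 0.455, 0.680 and 0.841 for Experiment 3. Herc3 was biased to the maternal column in Experiment 1 alone, although its pooled AI was similar in the others (0.673, 0.614 and 0.642). Nap1l5 lies on the other strand of Herc3 and shares no exon bases with it.

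In the remaining clusters no gene was biased in the kidney. Dlk1, a paternally expressed regulator of adipocyte formation, had 32 counts in Experiment 1, all in the maternal column, and its cluster mate Meg3, a maternally expressed non-coding RNA, had 20 of 21 kidney counts in the paternal column. Mest, a paternally expressed hydrolase gene, had 27 of 30 in the maternal column, and its overlapping neighbour Copg2 was not biased (pooled AI 0.421, 0.451 and 0.527). Slc38a4, an amino acid transporter gene, had pooled AI of 0.390, 0.395 and 0.557. Values were 0.427, 0.498 and 0.550 for Blcap, 0.527, 0.528 and 0.585 for Trappc9, 0.489, 0.491 and 0.471 for Inpp5f and 0.451, 0.435 and 0.476 for Gab1. None of the kidney groups had more than 2 counts of Gnas or any count of Usp29, Magel2, Nnat or Rasgrf1.

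**Figure D2:**
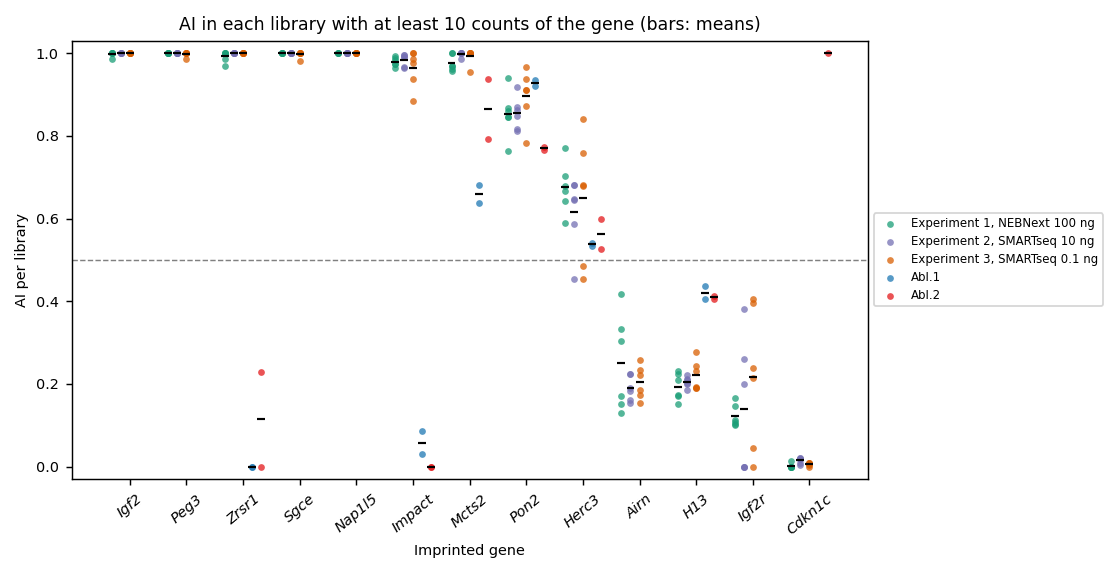
AI in each library with at least 10 counts (points, coloured by group) and group means (bars) for 13 imprinted genes, with the dashed line at 0.5. Kidney points of Igf2, Peg3, Zrsr1, Sgce, Nap1l5, Impact and Mcts2 lie at or above 0.883 and those of Cdkn1c at or below 0.021, while Herc3, Airn and Igf2r scatter more widely.

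Read by the tissue in which imprinting is described, 8 genes imprinted in the placenta were used in each kidney experiment and Pon2 was the only one biased, a share near the 14.3%, 19.9% and 10.6% of all genes used in Experiments 1 to 3. Of 5 genes imprinted in the brain or in neurons, none was biased by the QCC-corrected test in any kidney experiment (pooled AI 0.427 to 0.627). The genes around the 9 genes biased in all 3 experiments were near balance in their median. Within 2 Mb of each of them, the median AI of genes on no imprinted list was 0.454 to 0.520 in Experiment 1, and it was 0.435 to 0.503 in Experiment 2 and 0.457 to 0.530 in Experiment 3. Single neighbours could differ. Of the 10 such genes nearest to Igf2, and likewise to Cdkn1c, 1 was strongly biased to the paternal column in each kidney experiment.

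The AI of few imprinted genes differed by kit or input. In the edgeR quasi-likelihood test of allele by experiment, Casd1 was the only one of 32 whose AI differed between Experiments 1 and 2, where 7.98% of all genes did. Its AI was 0.544 ± 0.027 against 0.439 ± 0.040 (SD, n = 6 libraries each), with ranges that did not overlap (0.522 to 0.590 and 0.384 to 0.5) and an adjusted p of 0.0464 by edgeR. That call was lost in 10 of 12 fits that left out a library, under DESeq2 and by the QCC-corrected test. Adjusted p ran from 0.0197 to 0.112 over 16 edgeR and DESeq2 alternatives. Between Experiments 1 and 3, edgeR called 0 of 33 genes (3 at an unadjusted p under 0.05, DESeq2 0), where 4.32% of all genes were called, and between Experiments 2 and 3 it called 0 of 32 (6 unadjusted, DESeq2 0), where 0.394% were. Leaving out any 1 library of Experiment 3 ended the calls of Igf2, Zrsr1 and Nap1l5 there, with AI still at 1, and strongly biased genes then numbered 5 or 6 in place of 8.

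In the clones, fewer imprinted genes had counts. Abl.1 had 19 used, of which 7 were biased (20.6% of all 11829 genes used) and 4 strongly (6.89%). Abl.2 had 18 used, of which 5 were biased (28.7% of all 11640) and 1 strongly (12.8%). Igf2, Peg3, Sgce, Nap1l5, Igf2r, Airn, Phlda2, Peg10, Dlk1 and Slc38a4 had 0 counts in every clone library. In bulk RNA, fewer expressing cells and less RNA per cell cannot be told apart.

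**Figure D3:**
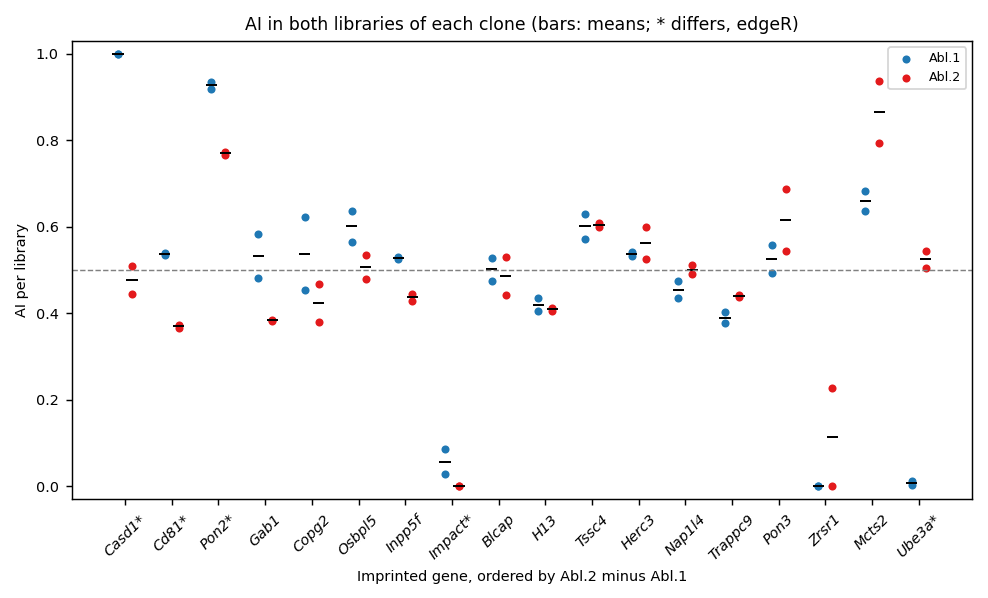
AI in both libraries of Abl.1 and of Abl.2 (points) with their means (bars) for 18 imprinted genes, ordered by the mean of Abl.2 minus that of Abl.1, with an asterisk where the AI differed by edgeR. Casd1 at the left and Ube3a at the right are nearly monoallelic in Abl.1 and near 0.5 in Abl.2.

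Impact was the only imprinted gene strongly biased in both clones, and it was in the paternal column, opposite to the kidney. Its counts were 4 and 132 in the maternal and paternal columns of 1 Abl.1 library, 13 and 139 in the other, and 0 and 198 and 0 and 214 in the Abl.2 libraries. The second sequencing of the Abl.2 libraries gave 0 and 198 and 0 and 212. No clone library was above an AI of 0.0855 and no kidney library below 0.883, so that the groups did not overlap. Against Experiment 2 (mean AI 0.983 ± 0.014), edgeR gave an adjusted p of 1.22e-10 for Abl.1 (0.0575 ± 0.040) and 3.4e-13 for Abl.2 (0). The bias of Impact in Abl.1 was not called from either of its libraries alone.

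Zrsr1 moved the same way with fewer counts. In Abl.1 it had 0 and 10 and 0 and 18 counts in the maternal and paternal columns, and in Abl.2 8 and 27 and 0 and 28. At QCC-corrected depth neither clone was biased (pooled AI 0, interval up to 0.485, and 0.127, interval 0.0323 to 0.388), yet the AI differed from Experiment 2 in both (edgeR adjusted p 4.02e-05 and 1.40e-05). The 8 maternal-column counts came from 1 library, and when that library was sequenced again it gave 0 and 32. Cdkn1c, in the paternal column in the kidney, had 4, 2, 10 and 6 counts in the 4 clone libraries, all in the maternal column, and 9 and 11 in the second sequencing of Abl.2. Mkrn3, below 20 counts throughout, had 0 and 10 in Abl.1 and 0 and 7 in Abl.2 in the maternal and paternal columns, against 32 and 1 in the kidney.

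The columns themselves kept their orientation between the kidney and the clones for most other genes. Of 72 genes on no imprinted list that were strongly biased in Experiment 2 and in Abl.1, 69 (95.8%) had the same column and 3 the opposite one, and for Abl.2 the same column was shared by 77 of 78 (98.7%). Impact was the only imprinted gene strongly biased in Experiment 2 and in a clone, and its columns were opposite in both clones. The labels do not say whether the kidney mouse and the clones came from the same direction of the cross, and this was not tested.

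Mcts2 had most of its counts in the same column in the clones as in the kidney but was biased in neither clone, on 33 and 45 counts pooled. Its counts were 15 and 7, and 7 and 4, in Abl.1 and 15 and 1, and 23 and 6, in Abl.2, for AI of 0.682, 0.636, 0.938 and 0.793. All 4 lay below every library of Experiment 2 (0.986 to 1), and the difference was called by edgeR for Abl.1 (adjusted p 1.34e-05) and Abl.2 (0.000474). H13 remained in the paternal column and moved towards balance, with an AI of 0.436 and 0.405 in Abl.1 and 0.406 and 0.412 in Abl.2 against 0.184 to 0.223 in Experiment 2 (edgeR adjusted p 7.34e-09 and 1.39e-09). These values rest on 4362 to 6529 counts per clone library. H13 was biased in both clones, but in Abl.1 not without replicate 2.

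Ube3a was nearly monoallelic in Abl.1 and not in Abl.2. Its counts were 1 and 353, and 5 and 364, in the maternal and paternal columns of the Abl.1 libraries, and 281 and 276, and 335 and 280, in those of Abl.2 (chr7:59228750-59311536). The AI of 0.00282 and 0.0136 in Abl.1 was far below 0.504 and 0.545 in Abl.2 and below every kidney library. The difference between the clones had an adjusted p of 2.32e-05 and that between Experiment 2 and Abl.1 one of 1.18e-09 by edgeR. Of the 10 genes nearest to Ube3a with counts in Abl.1, all on no imprinted list and within 5.11 Mb, 4 were biased, 3 of them strongly and to the paternal column, and their median AI was 0.133. In Abl.2 the median of the 10 nearest was 0.439 and 1 was biased. Whether Ube3a follows these neighbours was not tested.

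Casd1 was monoallelic in Abl.1 in the other column (chr6:4600839-4643355). It had 133 and 0, and 125 and 0, in the maternal and paternal columns of Abl.1, and 195 and 187, and 170 and 212, in Abl.2. The AI of 1 in both Abl.1 libraries stood apart from 0.510 and 0.445 in Abl.2 and from 0.384 to 0.5 in Experiment 2, with an adjusted p of 0.000147 between the clones and 5.24e-09 against Experiment 2 by edgeR. Neither Abl.1 library alone passed the test against balance. The 4 genes on no imprinted list within 2 Mb had a median AI of 0.506 in Abl.1 and none of them was biased by the QCC-corrected test.

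Cd81 and Pon2 differed between the clones by less. Cd81, a tetraspanin gene of the cell surface (chr7:143052739-143067934), had an AI of 0.535 and 0.540 in Abl.1 and 0.367 and 0.373 in Abl.2, from 6026 to 9195 counts per library. The clones did not overlap, and Abl.2 also lay below the kidney libraries of Experiment 2 (0.504 to 0.525), with an adjusted p of 5.32e-05 between clones and 1.6e-11 against Experiment 2 by edgeR. Pon2 had 0.919 and 0.936 in Abl.1 and 0.767 and 0.773 in Abl.2 (edgeR adjusted p 0.000311), on either side of the mean of Experiment 2, 0.854 ± 0.039. It differed from Experiment 2 in both clones (edgeR adjusted p 0.0039 for Abl.1 and 0.0123 for Abl.2). The Abl.1 call was lost without replicate 2, the Abl.2 call without either library, and both by the QCC-corrected test. For Impact, the small difference between the clones (0.0575 ± 0.040 against 0) had an edgeR adjusted p of 0.0175. It was lost in 3 of 4 fits that left out a library and by the QCC-corrected test.

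In all, edgeR called a difference of AI between Abl.1 and Abl.2 for 5 of 18 imprinted genes (25.4% of all 10553 genes tested). Between Experiment 2 and Abl.1 it called 11 of 19 (32.8% of all), 5 higher and 6 lower in Abl.1, and between Experiment 2 and Abl.2 8 of 18 (38.3%), 3 higher and 5 lower. The comparisons share the libraries of Experiment 2. Tissue, cell line, animal and sequencing differ together in them and cannot be told apart. Per the paper, the clone libraries were sequenced on another machine at another site, as longer paired reads where the kidney reads were single. Smaller changes against Experiment 2 were called for 4 genes.

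The AI of Tssc4 was 0.421, 0.511 and 0.516 (lowest, median, highest) in the libraries of Experiment 2, 0.572 and 0.630 in Abl.1 and 0.600 and 0.608 in Abl.2. Both clones lay above Experiment 2, at a mean AI of 0.601 ± 0.041 and 0.604 ± 0.0053 against 0.490 ± 0.039 (edgeR adjusted p 0.00140 and 0.000308). The mean of Tssc4 was nearer the clones in the other kidney experiments. It was 0.529 ± 0.024 with the NEBNext kit and 0.550 ± 0.053 with the SMARTseq kit at the lower input, and neither was tested against the clones. Pon3 had 0.387, 0.396 and 0.408 in Experiment 2, 0.492 and 0.557 in Abl.1 and 0.543 and 0.688 in Abl.2. Pon3 too was higher in every clone library than in Experiment 2, at 0.525 ± 0.046 and 0.616 ± 0.10 against 0.397 ± 0.0092 (edgeR adjusted p 0.00821 and 0.000403). The Abl.1 call was lost without replicate 2 of Abl.1 and by the QCC-corrected test. In the other kidney experiments the mean of Pon3 was near that of Abl.1, at 0.539 ± 0.107 in Experiment 1 and 0.523 ± 0.120 in Experiment 3. Trappc9 had 0.441, 0.535 and 0.588 in Experiment 2 and lower values, 0.377 and 0.403, in Abl.1 (0.529 ± 0.052 against 0.390 ± 0.018, edgeR adjusted p 0.00572), a call lost without replicate 1 of Abl.1. Nap1l4 had 0.484, 0.512 and 0.603 in Experiment 2 and 0.474 and 0.434 in Abl.1, just below that range (0.528 ± 0.047 against 0.454 ± 0.028, edgeR adjusted p 0.0336). The Nap1l4 call was lost by DESeq2 and without replicate 1 or 2 of Experiment 2 or replicate 2 of Abl.1. It held in 8 of 12 edgeR and DESeq2 alternatives. The QCC-corrected test called neither Trappc9 nor Nap1l4 between Experiment 2 and Abl.1. Against balance, Tssc4 was biased in both clones (pooled AI 0.605 and 0.604) and Trappc9 in Abl.1 (0.395), but in Abl.1 Tssc4 was lost without replicate 2 and Trappc9 without either library. The other genes used in the clones were not biased, at pooled AI of 0.586 and 0.508 for Osbpl5, 0.577 and 0.426 for Copg2, 0.505 and 0.493 for Blcap, 0.538 and 0.560 for Herc3, 0.528 and 0.437 for Inpp5f, 0.533 and 0.383 for Gab1 and, in Abl.1 alone, 0.571 for Slc22a18.

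**Figure D4:**
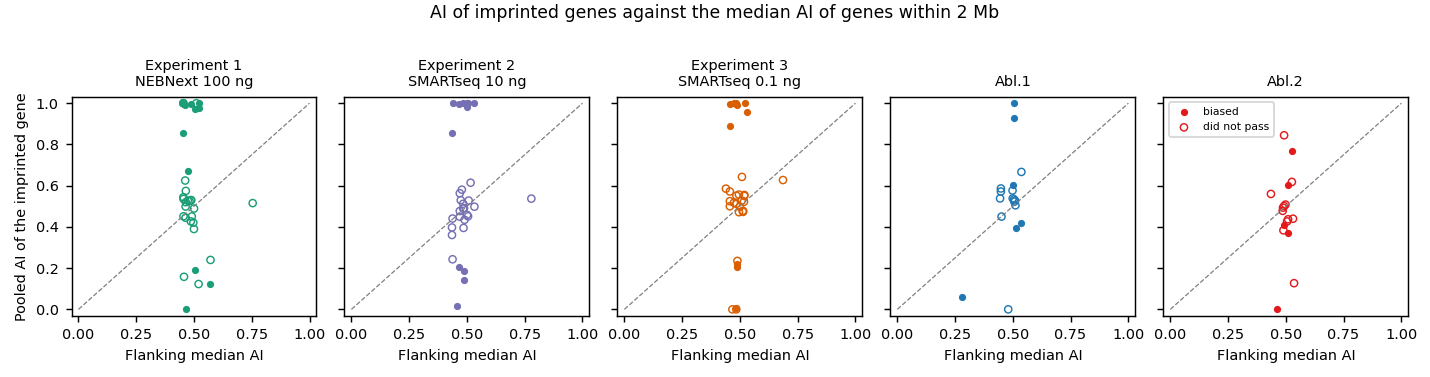
Pooled AI of each imprinted gene (vertical axis) against the median AI of genes on no imprinted list within 2 Mb (horizontal axis) in each group, filled where the gene was biased, with the dashed line at equal values. In the clones Impact is at 0.280 on the horizontal axis in Abl.1 and 0.461 in Abl.2, and the other biased genes shown lie near 0.5 on that axis. Genes with no such gene within 2 Mb are not shown. The 10 genes nearest to Ube3a in Abl.1, some of them beyond 2 Mb, had a median of 0.133.

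The neighbours of Impact also differed between the clones. Within 2 Mb, 10 genes on no imprinted list had a median AI of 0.280 in Abl.1, with 8 of them biased, and 11 had a median of 0.461 in Abl.2, with none biased by the QCC-corrected test. Impact itself was in the paternal column in both. Around Zrsr1 the medians were 0.480 and 0.536 in Abl.1 and Abl.2, with 19 genes each and 1 biased in each. For Pon2 they were 0.506 (6 genes) and 0.526 (8 genes).

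Total expression of the imprinted genes was compared between the clones from the sum of both allele columns, which does not use the split between them. It counts only reads that cover a SNP. Of 18 genes tested by edgeR, 3 were called, where 46.4% of all 12492 genes were. Casd1, expressed from 1 column in Abl.1, had 6.92 and 5.62 CPM there and 17.9 and 17.2 CPM in Abl.2. Its level was higher in both Abl.2 libraries, by 1.13 ± 0.28 on the log2 scale after TMM scaling (edgeR adjusted p 0.0203). For the log2 changes in this paragraph, ± is a standard error derived from the fit and not an SD. Pon3 had 60.3 and 45.7 CPM in Abl.1 and 21.0 and 21.6 CPM in Abl.2, a log2 change of -1.68 ± 0.25 (adjusted p 0.00364). H13 had 227 and 294 CPM in Abl.1 and 219 and 199 CPM in Abl.2, a log2 change of -0.66 ± 0.18 (adjusted p 0.0281). Ube3a, also from 1 column in Abl.1, had 18.4 and 16.6 CPM against 26.1 and 27.7 CPM, a log2 change of 0.26 ± 0.22 that did not pass (adjusted p 0.365). The calls of Casd1 and H13 were lost without either Abl.2 library, and TMM lowered the log2 change of the median gene by 0.36 against scaling by totals alone.

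**Figure D5:**
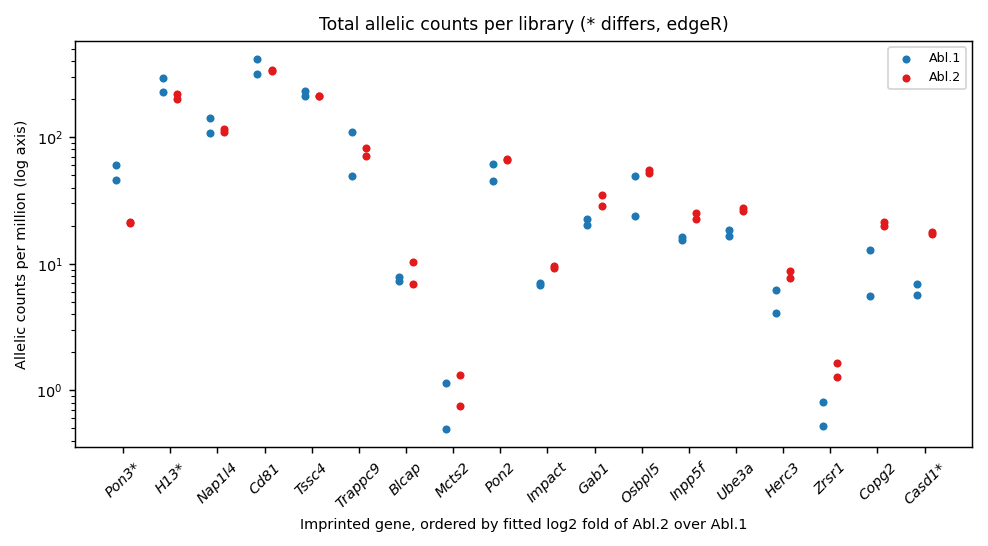
Total CPM (log axis) of 18 imprinted genes in both libraries of Abl.1 and Abl.2, ordered by the fitted log2 fold of Abl.2 over Abl.1, with an asterisk on genes called by edgeR. Pon3 and H13 were lower and Casd1 higher in Abl.2 after TMM scaling, and the TMM-scaled fold differs from the plotted values by 0.36 on the log2 scale for the median gene.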

How the data were processed

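Allelic RNA-seq counts per gene were taken from the 2 tables of raw allelic counts as the authors deposited them, 1 for the kidney and 1 for the clones, with a maternal and a paternal column for each of 24 samples (each Abl.2 library is there as 2 samples, 1 for each sequencing). Per the study's methods, the authors mapped reads to 2 strain-specific pseudogenomes and summed allele-specific reads over the SNPs of a gene (STAR 2.5.4a, SAMtools and GATK in the submitters' notes, build GRCm38). A read that spans several SNPs can therefore count more than once, and intervals cover counting error and the QCC only. Separate deposited tables hold the authors' AI estimates and were not used. The imprinted genes and the other lists (further imprinted genes, imprint maintenance, markers of kidney epithelium and of B lineage, T, myeloid, endothelial and erythroid cells) were chosen with earlier results of these data known.

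Pooled AI was tested against 0.5 with the QCC-corrected proportional test of the study over all genes with at least 20 pooled counts. QCC was refitted from every pair of libraries in coverage bins. Differences of AI used edgeR 4.0.16 (quasi-likelihood, a term for each library and for allele by group, the library total as size of both columns), and totals used edgeR with TMM and filterByExpr, both with Benjamini-Hochberg adjustment at 0.05 over all genes tested. DESeq2 1.42.0, the uncorrected test, scaled allele columns, a replicate block and fits without each library were alternatives, and the AI of the 5 nearest genes on each side was added after seeing the data. Every imprinted gene is accounted for. Values per library were given for genes that were strongly biased in any group or whose AI differed between groups (between kidney experiments, by at least 0.1), the others by pooled AI (Herc3, Igf2r and Airn were added with their values known), and of other lists at most 6 genes strongly biased in most groups. The first sequencing of Abl.2 was the main one. Flanking genes were those on no imprinted list whose middle lay within 2 Mb, by GENCODE coordinates of GRCm38. On simulated counts for Experiments 2 and 3, the AI test recovered 90 of 100 genes with a log2 odds ratio of 1 and 100 of 100 with 2, and called 8 unchanged genes of 13098 tested. For the totals of the clones it recovered 61 of 100 genes changed 2-fold and 100 of 100 changed 4-fold. Both simulations drew the changed genes from well-covered ones and used a fixed noise level, so recovery at low counts was not measured. R 4.3.3 and Python 3.11.15 were used.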

Additional observations from a re-analysis of the deposited data

Results flagged for a closer look

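In the following results the AI of an imprinted gene differed between groups by the edgeR test. Each value is the difference of mean AI over libraries, and the adjusted p-values stand in the report. Abl.2 minus Abl.1 was -0.522 for Casd1, 0.516 for Ube3a, -0.168 for Cd81, -0.158 for Pon2 and -0.0575 for Impact. Abl.1 minus Experiment 2 was 0.561 for Casd1, 0.215 for H13, 0.128 for Pon3, 0.111 for Tssc4 and 0.0734 for Pon2. It was negative for the other 6, at -1 for Zrsr1, -0.926 for Impact, -0.529 for Ube3a, -0.339 for Mcts2, -0.139 for Trappc9 and -0.0740 for Nap1l4. Abl.2 minus Experiment 2 was 0.219 for Pon3, 0.204 for H13, 0.114 for Tssc4, -0.983 for Impact, -0.886 for Zrsr1, -0.142 for Cd81, -0.132 for Mcts2 and -0.0846 for Pon2. Experiment 2 minus Experiment 1 was -0.105 for Casd1.

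In 6 of 87 sets of a gene in a kidney experiment, 1 library stood apart from 5 identical ones. The 5 were at an AI of 0 or 1, where any lesser-column count sets a library apart, so no chance rate is given. The lowest library had an AI of 0.987 for Igf2 in Experiment 1, 0.986 for Mcts2 in Experiment 2, 0.955 for Mcts2 in Experiment 3, 0.985 for Peg3 in Experiment 3 and 0.980 for Sgce in Experiment 3, with the others at 1. For Cdkn1c in Experiment 1 the highest library had 0.0147 and the others 0. The library that stood apart had 1 to 3 counts in the lesser column.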

How the results depend on the processing

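No imprinted gene called biased changed column, and no called difference changed sign, under the alternatives run. Without the QCC correction, the biased imprinted genes numbered 21 in place of 11 in Experiment 1, 19 in place of 11 in Experiment 3, 11 in place of 7 in Abl.1 and 10 in place of 5 in Abl.2. Of all genes used, 4273 of 13972, 4841 of 13662, 5956 of 11829 and 6244 of 11640 were then biased in the same groups. Benjamini-Hochberg adjustment gave 21 in Experiments 1 and 2 and 9 in Abl.2. Of all genes used, 4421 of 13972, 5479 of 13582 and 6051 of 11640 were then biased in these groups, and the 9 of 18 in Abl.2 was near that share. The edgeR test against balance gave 20 in Experiment 1 and 21 in Experiment 2, and the count over all genes is not given for it. Leaving out a library gave 5 to 6 strongly biased genes in Experiment 3, where 221 to 233 of all 13341 to 13381 genes used were. In Abl.1 each library alone gave fewer biased and strongly biased genes than the pair. The count of different totals between the clones rose without an Abl.1 library and fell without an Abl.2 library. DESeq2 gave 6 in place of 3, and its count over all genes is not given.

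Between Experiments 1 and 2 the count of 1 became 4 when each allele column was scaled by its own total, 0 by DESeq2 and by the QCC-corrected test, and 0 to 1 without a library. Between Experiment 2 and Abl.1 the 11 became 7 by the QCC-corrected test and 7 to 12 without a library, with 7 when replicate 2 of Abl.1 was left out. A replicate block gave 0 genes between Experiments 1 and 2, 8 in place of 11 between Experiment 2 and Abl.1 (without Pon2, Pon3 and Trappc9), and no change of count in the other comparisons of AI, with 8 genes between Experiment 2 and Abl.2 and 5 between the clones. For total counts the block gave 3 genes, with H13 lost and Copg2 gained. Libraries with the same number did not deviate together (correlations from -0.0399 to 0.0474), so the numbers were not taken to pair them. Depth limits the genes with few counts: Peg10 (26 counts), Dlk1 (32) and Nap1l5 (64) were not called in Experiment 1 with all counts in 1 column. In fits that leave a clone with 1 library, the lone library is assumed to vary like the other group, and the test against balance keeps the QCC of the pair.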

Other observations

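Of 40 further genes described as imprinted in mouse, 35 were found by symbol, and 18, 19 and 18 were used in Experiments 1 to 3 and 8 in each clone. Apart from Plagl1 and Grb10, the genes named here were chosen after their values were seen. Biased genes numbered 5, 6 and 3 in the 3 kidney experiments, 3 in Abl.1 and 2 in Abl.2, where 14.3%, 19.9%, 10.6%, 20.6% and 28.7% of all genes used were biased. Plagl1, a zinc finger gene known as paternally expressed, had 1905 and 95 counts in the maternal and paternal columns in Experiment 1, 699 and 13 in Experiment 2, with 670 and 6 for Experiment 3. Grb10, an adaptor that restrains insulin receptor signalling, had 3 and 172, 3 and 98, and 2 and 65, and was biased in Experiments 1 and 2. In Abl.1 it had 13 and 1 counts, under the minimum of 20. Ddc, which encodes the decarboxylase that makes dopamine and serotonin and lies beside Grb10, had an AI of 0.362, 0.308 and 0.295 in the kidney and Dcn, of the matrix proteoglycan decorin, 0.381, 0.373 and 0.411, both biased in all 3 experiments. Tfpi2, a protease inhibitor gene near the Peg10 cluster, was biased in Experiments 1 and 2 (0.688 and 0.642), and Pde4d was also biased in Experiment 2. In the clones, Tspan32 (0.563 in Abl.1 and 0.602 in Abl.2) and Dhcr7 (0.304 and 0.219) were biased in both, and Atp10a, near Ube3a, in Abl.1 (239 and 1076 counts, AI 0.182) and not in Abl.2 (0.437).

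The 17 genes of imprint maintenance (DNA methylation and its reader proteins) summed to 152 to 310 CPM in the kidney, 1138 to 1377 CPM in Abl.1 and 1635 to 1649 CPM in Abl.2. Zfp445, a zinc finger protein that keeps imprints, was biased to the paternal column in Experiments 2 and 3 (AI 0.187 and 0.164), and no gene of this list was biased in Experiment 1 by the QCC-corrected test. Uhrf1, which recruits DNMT1 to replicated DNA, was biased to the maternal column in both clones (0.695 and 0.650), and the de novo methyltransferase gene Dnmt3a to the paternal column in Abl.1 (0.354). Zfp57 had at most 1 count in any group. Markers of other cell types were low in part: T cell markers summed to at most 3.70 CPM in any library, myeloid markers to 69.1 to 171 CPM in the kidney, 154 to 183 in Abl.1 and 298 to 308 in Abl.2, endothelial markers to 391 to 593, 261 to 283 and 39.0 to 43.4 CPM, and erythroid markers to at most 1.67 CPM. Their part in the AI of the imprinted genes was not tested.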
